A study of Vitis vinifera with 2 samples.

Results

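Transposable elements (TEs) that carried little CG methylation in grapevine leaf and clearly more in embryogenic callus (EC) are described here. They were chosen by their CG values: a TE was taken when its CG methylation was under 30% in leaf and at least 20 percentage points higher in EC. 1123 of the 104487 TEs with a CG value met this rule, out of 184251 TEs listed in any of the 3 sequence contexts. They are called CG-gaining TEs below, and their CG values are given as a description with no test, because those values chose them.

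Whole-genome bisulphite sequencing was carried out on 1 library of young leaf tissue and 1 library of proliferating EC, both from Vitis vinifera cv. Chardonnay with no other treatment in the labels. Per the study's methods, EC was raised from anthers, kept in the dark and pooled over several Petri dishes, and the leaves came from the same vines. Bisulphite turns unmethylated cytosine into a base that is read as thymine, so a site's methylation level is the part of its reads still showing cytosine, given here in percent. With 1 library per tissue, differences between tissues have no replicate check, and the tissue, the dark culture and the library preparation cannot be told apart.

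As background, plants methylate cytosine by separate routes in each context. CG methylation is copied onto the new strand after each cell division by MET1, a maintenance methyltransferase known from Arabidopsis. CHG methylation, where H is A, C or T, is kept up mainly by CMT3, which is guided by a histone mark of silent chromatin. CHH methylation has to be set anew, by CMT2 in the body of long elements and by DRM2 where small RNAs direct it, a route called RNA-directed DNA methylation. TEs are usually methylated in all 3 contexts, and a TE with little CG methylation is therefore the less common state.

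Such TEs were few in these libraries. Leaf CG was under 30% in 2923 TEs, while the median over all 104487 TEs was 87.7% in leaf and 90.2% in EC. Of these 2923, 1123 gained at least 20 points, which is 38.4% (Wilson 95% interval 36.7 to 40.2%, counting error over TEs only). 1682 stayed low, defined as a gain of under 20 points and under 30% CG in EC, and they are the comparison group throughout. The remaining 118 gained under 20 points but reached 30% or more in EC, and are left aside. Over all TEs with a CG value, whatever their leaf level, 6.73% were at least 20 points higher in EC. The rule used this contrast, and most other TEs had too high a leaf level to gain as much.

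Movement in the other direction was also frequent. With the tissues exchanged in the rule, 870 of the 2717 TEs under 30% in EC were at least 20 points higher in leaf. By gain, it was 1123 of the 2923 TEs under 30% in leaf. Among intergenic TEs, which overlap no gene, 984 of 2321 entered by gain and 665 of 2027 by the exchanged rule. Among genic TEs, which overlap an annotated gene by at least 1 base, the order was reversed, with 139 of 602 against 205 of 690. The same was seen in TEs of at least 500 bp, with 253 against 167 intergenic TEs and 31 against 38 genic TEs.

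The CG-gaining TEs rose towards the level of other TEs without reaching it in most cases, and not all of them started from an unmethylated state. Their leaf CG had a median of 11.7% (mean 12.4%, SD over TEs 10.3) and their EC CG a median of 70.3% (mean 65.9%, SD 21.2). That median lay below the lower quartile of all TEs in EC, which was 82.9%. In leaf, 239 were listed at 0, 408 were under 5%, and 356 lay between 20 and 30%. In EC, 566 reached at least 70%, and 82 were still under 30%. Only 132, or 11.8%, went from under 5% to at least 70%. The label "newly CG methylated" therefore describes a minority in the strict sense, and for the 356 TEs nearest the upper leaf limit the change was a rise from partial methylation. The gain was at least 50 points in 657 TEs and between 20 and 30 points in 198.

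**Figure D1:**
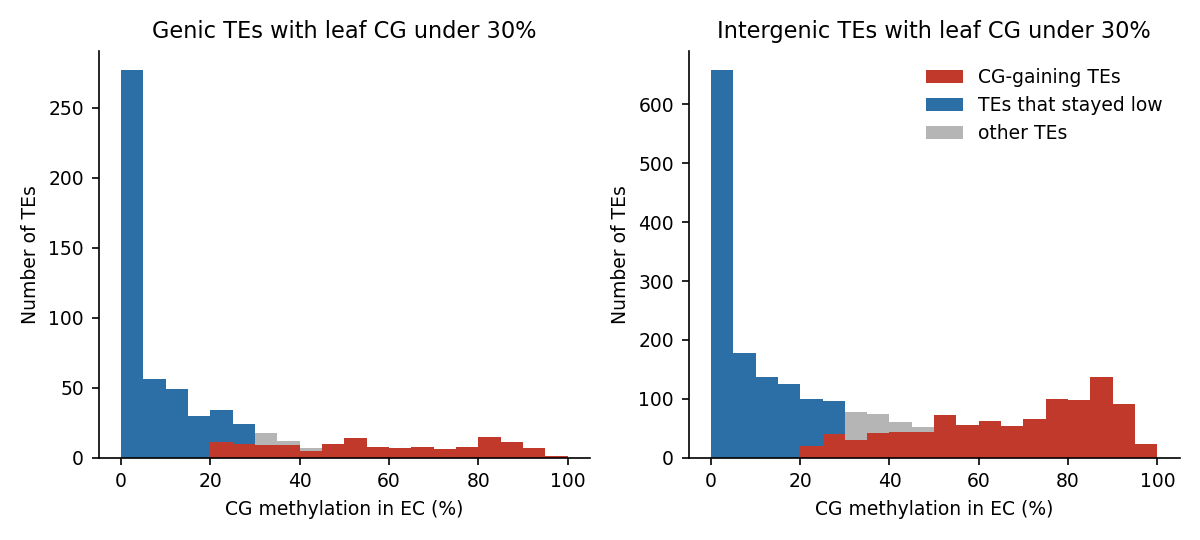
CG methylation in EC (x axis, percent, bins of 5 points) against the number of TEs (y axis) for the 2923 TEs with leaf CG under 30%, in 602 genic TEs (left) and 2321 intergenic TEs (right), stacked by outcome. The intergenic CG-gaining TEs pile up between 75 and 95%, while the genic ones are spread from 20% upwards.

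TEs with some CG methylation left in leaf were more often among those that gained. Of the 1210 TEs with leaf CG under 2%, 24.05% gained at least 20 points. The share was 43.8% of 267 TEs at 2 to under 5%, 42.3% of 253 at 5 to under 10%, 48.5% of 262 at 10 to under 15% and 53.1% of 303 at 20 to under 25%. In genic TEs alone the course was uneven. Their share was 15.4% of 311 under 2%, 40% of 50 at 2 to under 5% and 23.4% of 47 at 5 to under 10%. It was 15.9% of 44 at 10 to under 15% and 32.6% of 46 at 20 to under 25%. Starting levels of the TEs that stayed low were correspondingly lower, with a median of 0.785% and 798 of 1682 listed at 0. The median gain was alike at both ends of the leaf range, at 51.9 points for the 291 CG-gaining TEs under 2% in leaf and 51.0 points for the 195 between 25 and 30%. It was higher in between, at 61.1 points for the 127 at 10 to under 15%. The level reached differed between the ends, with a median EC CG of 52.0% under 2% in leaf and 78.2% between 25 and 30%.

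The share that gained was higher among intergenic TEs. 984 of 2321 intergenic TEs gained (42.4%, Wilson 95% interval 40.4 to 44.4%), against 139 of 602 genic TEs (23.1%, 19.9 to 26.6%). The background over all TEs ran in the same direction, at 7.58% of intergenic and 3.88% of genic TEs. Genic TEs made up 12.4% of the CG-gaining TEs, 26.7% of those that stayed low and 23.0% of all TEs with a CG value. Genic members also reached a lower level, with a median EC CG of 58.0% against 71.4% in intergenic members. At TEs under 200 bp the genic share was 17.8% of 275 and the intergenic share 41.3% of 778, and from 500 to under 1000 bp they were 25.5% of 98 and 48.9% of 442.

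CHG methylation rose at most CG-gaining TEs. 827 of the 1123 had a CHG value, and their mean went from 17.1% in leaf to 49.5% in EC, a change of 32.3 points (SD over TEs 27.1, median 34.1). The 1256 TEs that stayed low and had a CHG value went from 5.81 to 7.23%. CHG was at least 20 points higher in EC in 511 of 827 CG-gaining TEs (61.8%, 58.4 to 65.0%) and in 43 of 1256 TEs that stayed low (3.42%, 2.55 to 4.58%). The share over all TEs with a CHG value was 19.7%. CHG and CG come from different cytosines of the same reads, so this is not an independent measurement of the contrast.

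The genic and intergenic members differed in CHG more than in CG. CHG went from 17.2 to 52.0% in 725 intergenic members and from 16.4 to 31.5% in 102 genic members. It gained at least 20 points in 475 intergenic members (65.5%, against 24.4% of all intergenic TEs) and in 36 genic members (35.3%, against 5.96% of all genic TEs). CHG was lower in EC in 29 of the 102 genic members (28.4%), though CG had risen there, and in 45 of the 725 intergenic members (6.21%). Over all genic TEs with a CG value the median CHG change was -5.76 points, so a fall was more frequent there than among genic members. Over all intergenic TEs with a CG value the lower quartile of the change was 2.23 points. All genic TEs with a CG value had a mean CHG change of -10.4 points, and all intergenic ones a change of 9.99 points. Genic members thus moved up on average in a class that moved down, but the starting levels differed. Mean leaf CHG was 51.6% in all genic TEs with a CG value. The genic TEs that stayed low started at 3.11% and had a mean CHG change of 0.371 points. The median change of genic members was 7.25 points.

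**Figure D2:**
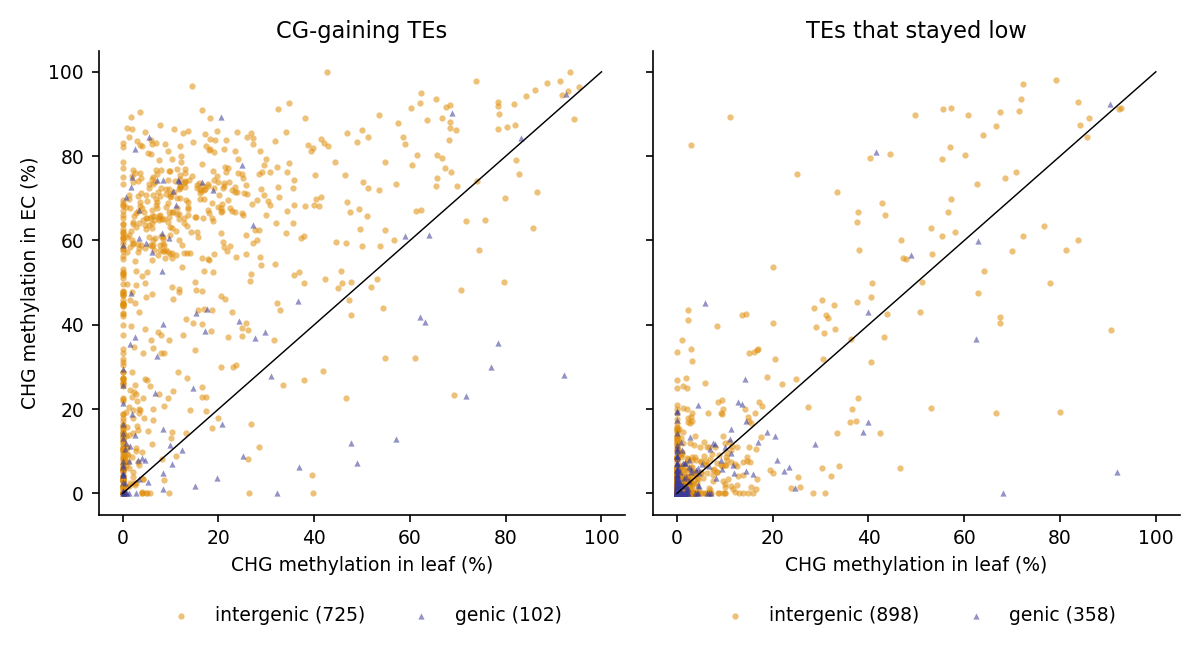
CHG methylation of single TEs in leaf (x axis, percent) and in EC (y axis, percent), for 827 CG-gaining TEs (left) and 1256 TEs that stayed low (right), with circles for intergenic and triangles for genic TEs and the line of equal values. CG-gaining TEs form a cloud at 55 to 85% in EC above low leaf values, and genic members below the line had lost CHG while gaining CG.

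The CHG gain grew with the CG level reached. Among intergenic members with EC CG of 20 to under 40%, the mean CHG change was 9.69 points over 104 TEs. It was 16.4 points at 40 to under 60% (142 TEs), 39.6 points at 60 to under 80% (192 TEs) and 49.7 points at 80% or more (287 TEs). In genic members the corresponding changes were -0.559, -3.60, 22.5 and 41.0 points, over 27, 25, 22 and 28 TEs. Genic members that reached under 60% CG therefore showed no mean CHG gain, while intergenic members of the same CG level did.

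The 827 members with a CHG value fell into 3 main states, divided at CHG levels of 20 and 60%. The most frequent, with 501 TEs (60.6%), had CHG under 60% in leaf and a CHG gain of at least 20 points. Their median CG went from 16.2 to 81.4%, their median CHG from 9.73 to 66.6%, and only 6.99% of them were genic. In a further 197 TEs (23.8%) CHG gained less or fell, and was under 20% in EC, so that CG was gained with little CHG in EC. Their median CG went from 3.25 to 43.8% and their median CHG from 0.24 to 6.90%. Their median CHH in EC was 5.66%, and 24.9% of them were genic. This state joins TEs with little CHG in both tissues and some TEs that had lost CHG. A small set of 63 TEs (7.62%) had at least 60% CHG already in leaf, with a median CHG of 71.8% beside a median CG of 11.1%. In EC these 63 had a median CHG of 83.9% and a median CG of 55.6%. The last 66 TEs lay between these states.

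CHH methylation rose at nearly every CG-gaining TE, but it rose at most other TEs too. In the 1119 members with a CHH value, mean CHH went from 1.37 to 23.8%, and it was higher in EC in 1102 of them. In the 1662 TEs that stayed low it went from 0.494 to 6.82%, and was higher in 1340. A CHH gain of at least 20 points was seen in 612 of 1119 members (54.7%, 51.8 to 57.6%) and in 167 of 1662 TEs that stayed low (10.05%, 8.69 to 11.6%). Over all TEs with a CHH value the share was 66.8%, so the members were above the TEs that stayed low and below TEs in general. By class, 562 of 981 intergenic members passed (57.3%, against 77.9% of all intergenic TEs), and 50 of 138 genic members passed (36.2%, against 30.9% of all genic TEs). The genic share was close to its background.

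**Figure D3:**
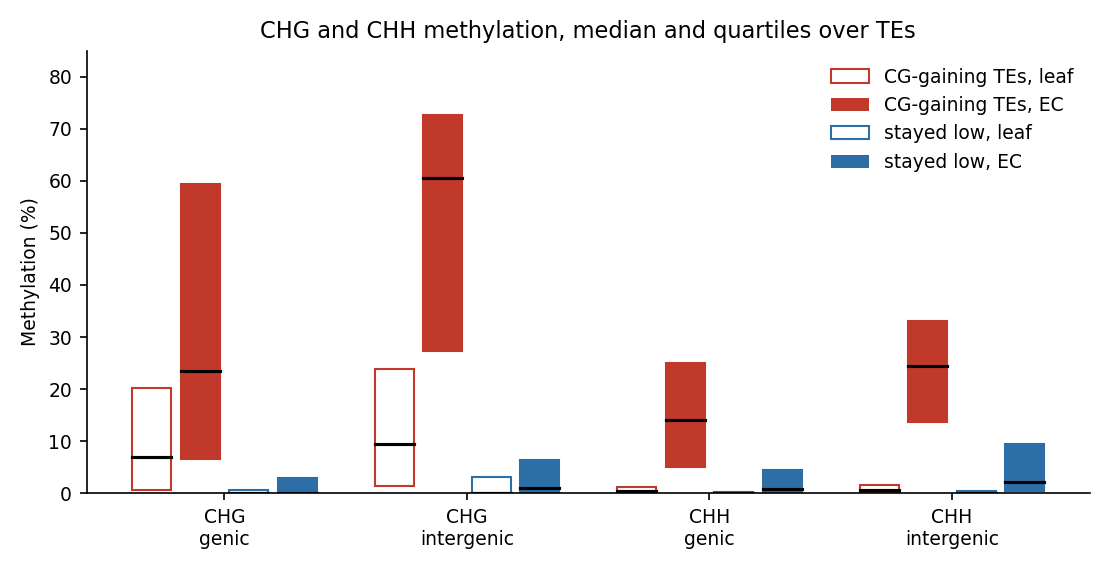
CHG and CHH methylation (y axis, percent) of genic and intergenic TEs, drawn as boxes from the lower to the upper quartile over TEs with a black line at the median, open for leaf and filled for EC. In EC the box of the intergenic CG-gaining TEs lies between 27.3 and 72.7% for CHG, above that of the TEs that stayed low, whose upper quartile is 6.41%.

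CHG and CHH did not always rise together. Of the 826 CG-gaining TEs with values in all 3 contexts, 365 (44.2%) gained at least 20 points in both, 146 (17.7%) in CHG alone, 91 (11.02%) in CHH alone, and 224 (27.1%) in neither. The shares over all 88570 TEs with values in 3 contexts were 19.5, 0.997, 53.9 and 25.6%. A gain in CHH alone was thus the commonest state of TEs in general and the least common among members, while the share with neither was near its background. Among the 101 genic members with 3 contexts, 23 gained in both (22.8%, against 5.51% of all genic TEs), 13 in CHG alone (12.9%, against 0.756%) and 9 in CHH alone (8.91%, against 29.3%). Among the 725 intergenic ones, 342 gained in both (47.2%, against 23.8% of all intergenic TEs), 133 in CHG alone (18.3%, against 1.07%) and 82 in CHH alone (11.3%, against 61.5%). Neither gained in 56 of 101 genic members (55.4%, against 64.4% of all genic TEs) and in 168 of 725 intergenic members (23.2%, against 13.7% of all intergenic TEs). Among the TEs that stayed low, 1128 of 1247 gained in neither.

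Single members show this range. Among those of at least 500 bp with values in all 3 contexts, the largest CG gain was at an intergenic TE on chromosome 18 (4195982 to 4196538, plus strand, 557 bp), where CG went from 0.81 to 93.2%, CHG from 0 to 83.2% and CHH from 0.75 to 71.4%. A TE on chromosome 2 (10361306 to 10361959, minus strand) went from 0 to 91.4% in CG, from 5.56 to 72.4% in CHG and from 0.09 to 47.0% in CHH. On chromosome 1, another intergenic TE (9191333 to 9192316, minus strand, 984 bp) rose from 1.43 to 89.7% in CG and from 0 to 52.6% in CHG. All 3 carried little methylation in every context in leaf and high CG in EC, but they differed in the other contexts. The first had more CHH in EC than most intergenic TEs (upper quartile 44.2%), and the last had less CHG than most (lower quartile 67.4%).

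The genic members with the largest gains were less uniform. The first lay on chromosome 1 (5328369 to 5328880, plus strand, 512 bp), with CG going from 6.25 to 94.6%, CHG from 20.5 to 89.2% and CHH from 1.11 to 56.2%. On chromosome 15 (14421877 to 14422619, minus strand) CG went from 4.64 to 87.2% and CHG from 11.7 to 74.3%, but CHH only from 1.47 to 14.0%. On chromosome 12 (840389 to 840928, plus strand) CG went from 0 to 70.3% while CHG fell from 63.2 to 40.7%. This last TE was methylated in CHG without CG in leaf and in all 3 contexts in EC. The genes that these TEs overlap are not analysed here.

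The longest members showed both extremes. The longest of all was an intergenic TE of 5386 bp on chromosome 3 (17090028 to 17095413, plus strand), with CG going from 27.6 to 91.6% and CHG from 53.4 to 89.8%. The longest genic member, of 3413 bp on chromosome 15 (17467145 to 17470557, plus strand), went from 5.63 to 27.1% in CG and only from 0 to 6.24% in CHG. The next genic members in length, of 1550 bp on chromosome 3 (4989375 to 4990924) and 1295 bp on chromosome 13 (9691410 to 9692704), reached 52.4 and 54.6% CG with 4.76 and 1.04% CHG in EC. All 3 of these long genic members thus gained CG with little CHG.

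TEs just inside and just outside the rule differed little in CG. Of TEs of at least 500 bp, the members closest to the leaf limit had 29.9% CG in leaf and 85.8% in EC (chromosome 14, 16918487 to 16919540), and 29.9 and 84.0% (chromosome 9, 13200339 to 13200952). The TEs just outside had 30 and 87.7% (chromosome 10, 7487256 to 7487854) and 30 and 80.4% (chromosome 11, 10531165 to 10531875). At the limit on the gain, members with exactly 20 points went from 20 to 40% on chromosome 13 (9824683 to 9826229) and from 0 to 20% on chromosome 7 (9046317 to 9047130). TEs left out at 19.98 points went from 18.2 to 38.2% on chromosome 11 (17197096 to 17197819) and from 0 to 19.98% on chromosome 13 (24263041 to 24263924).

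The CG-gaining TEs were short. Their median length was 272 bp (quartiles 179 and 501, range 35 to 5386 bp), against 598 bp for all TEs with a CG value, but the TEs that stayed low were of similar length, with a median of 250 bp. Only 43 members, or 3.83%, reached 1000 bp, against 33.2% of all TEs. Short length was thus shared by the leaf-low TEs as a whole. Within them, the share that gained was 35.1% under 200 bp, 39.7% from 200 to under 500 bp, 44.6% from 500 to under 1000 bp and 28.1% from 1000 to under 3000 bp. The number of cytosines and reads behind a value is unknown, and short TEs hold fewer of both.

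A few exact lengths recurred. 32 members were 164 bp long, 28 were 183 bp, 15 were 208 bp and 13 were 181 bp. These 4 lengths together held 7.84% of the CG-gaining TEs, 1.25% of the TEs that stayed low and 0.658% of all TEs with a CG value. They were the commonest lengths among the members, and so were chosen after the lengths had been seen. The 164-bp members were spread over 14 chromosome sequences, and their median CG went from 3.88 to 88.9%, a higher end level than that of the members in general.

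Most CG-gaining TEs of 164 and 208 bp lay in one repeated arrangement. Most listed TEs of these lengths did not, since 520 were 164 bp and 328 were 208 bp long, and the arrays held 105 TEs of any length. In these short arrays a 164-bp TE lay exactly 16 bp from the next annotated TE on the same strand. Their full form read, along the strand, 208, 164, 164, 190 and 142 bp. An array was taken to be a run of TEs of 140 to 240 bp on the same strand, at most 30 bp apart, holding such a 164-bp TE. The runs were built from positions only, but the definition was made after the values had been seen. The 164-bp length was chosen because it was the commonest among the members. The arrays were thus found through TEs that had already gained CG, so the counts below were partly fixed in advance. It gave 30 arrays on 13 chromosomes with 105 TEs, of which 84 had a CG value. 57 of these 84 were under 30% CG in leaf, and all 57 gained at least 20 points, so that no TE of the arrays stayed low. CG was higher in EC in 84 of 84, of which 57 were members and so higher by the rule. Over all TEs with a CG value the median CG change was 2.18 points, with quartiles of -2.34 and 7.34. The arrays held 5.08% of all CG-gaining TEs, 9 of them genic, and reads of such similar copies may have been placed on the wrong copy.

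Within these arrays, leaf CG differed with the place in the array. Low leaf CG in the TEs of 160 to 170 bp was partly fixed in advance. The arrays were found through a length common among members, and members are low in leaf by the rule. The contrast of that place with the others is therefore a description only. The TEs of 200 to 240 bp at the start had a median leaf CG of 8.70% (19 TEs, range 0 to 34.4%), and those of 160 to 170 bp a median of 7.68% (38 TEs, 0 to 39.4%). It was 34.7% in the TEs of 180 to under 200 bp (14 TEs, 18.7 to 76.7%) and 79.2% in the closing TEs of 140 to 150 bp (11 TEs, 58.9 to 91.0%). The 2 TEs of other lengths are left out of these groups. In EC the medians were nearly level along the array, at 87.8, 88.8, 92.9 and 92.9%. CHG showed the same course in leaf, with medians of 5.90, 6.33, 18.8 and 69.6%, and reached medians of 68.8, 64.8, 69.9 and 94.2% in EC. In the 11 arrays with a value for the closing TE, it had the highest leaf CG in 11. Leaf CG spanned a median of 79.05 points within these arrays (at least 40.2), and EC CG a median of 9.32 points (at most 28.2).

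The array on chromosome 5 (18864389 to 18865306, plus strand) had leaf CG of 8.18, 3.13, 10.1, 18.7 and 84.3% from its first to its last TE, and EC CG of 84.1, 89.7, 84.5, 86.4 and 96.7%. Leaf CG was thus low in 4 adjoining TEs and high in the next, which begins after a gap of 2 bp. On chromosome 16 (7575837 to 7576754, plus strand) leaf CG was 3.07, 0.74, 0.59, 39.0 and 84.9%, and EC CG was 89.7, 88.3, 88.8, 95.2 and 93.1%. The rise in leaf was not steady in every array. On chromosome 10 (16645268 to 16646158, plus strand) leaf CG was 2.17, 26.84, 68.76, 39.55 and 87.75%. The array on the minus strand of chromosome 3 (13194185 to 13195102), read in its own direction, had 8.70, 0, 0, 35.9 and 79.1% in leaf and 87.3, 90.6, 91.3, 91.8 and 92.0% in EC. CHH in EC lay between 17.8 and 39.5% along it, against a median of 36.8% over all intergenic TEs with a CG value. Without the TEs of all arrays, 1066 CG-gaining TEs remained, with a mean CHG change of 30.8 points and a mean CHH change of 22.8 points.

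**Figure D4:**
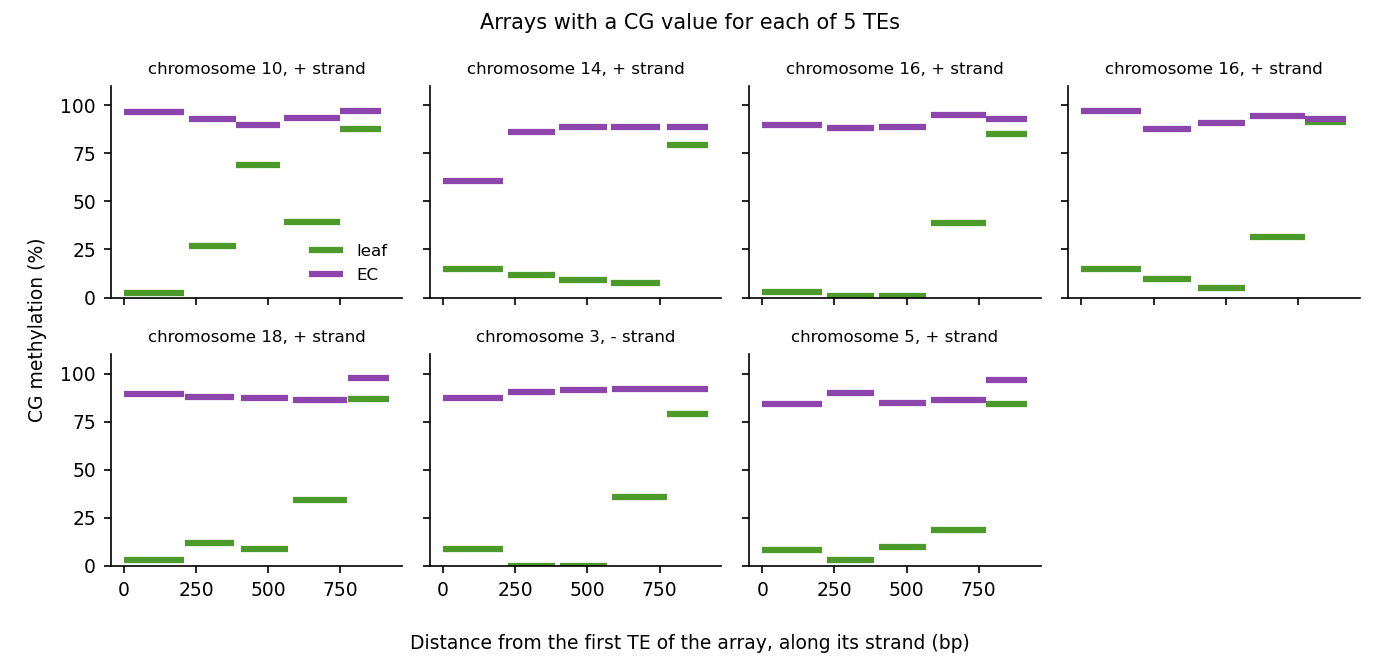
CG methylation (y axis, percent) of the TEs in the 7 arrays with a CG value for each of 5 TEs, placed by distance from the first TE along the strand (x axis, bp), each bar spanning 1 TE, green for leaf and purple for EC. In all 7 the last TE is high in both tissues and the first is under 20% in leaf, and EC values are high along the whole array, apart from 60.7% at the first TE of the array on chromosome 14.

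The CG-gaining TEs mostly lay among methylated TEs. 1046 of the 1123 (93.1%) had a TE with a CG value within 5 kb that did not overlap them, against 1399 of the 1682 that stayed low (83.2%). The mean CG of these neighbours in leaf was 75.1% around members, 71.9% around TEs that stayed low and 82.6% around all TEs. The leaf difference of 3.21 points between the first and second group depended on how it was taken. It was 11.6 points for neighbours within 1 kb and 8.73 points for TEs of at least 500 bp, but 0.519 points within 20 kb, -0.698 points by medians and -0.142 points in genic TEs alone. In EC the neighbours stood at 83.2, 73.6 and 85.6%, so that they had changed by 8.09, 1.65 and 2.92 points. A member's own CG lay a median of 64.0 points below its neighbours' mean in leaf and 13.1 points below it in EC, while TEs that stayed low lay 71.2 and 72.4 points below.

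Part of the neighbours' rise came from other members. A CG-gaining neighbour was found within 5 kb of 181 members (17.3%), of 83 TEs that stayed low (5.93%) and of 3.82% of all TEs. A neighbour under 30% CG in leaf was about as frequent around members (23.2%) as around TEs that stayed low (26.1%), and less so around all TEs (7.50%). With CG-gaining neighbours left out, the neighbours of members still changed by 5.42 points and those of TEs that stayed low by 0.728 points. In addition, 260 members (23.2%) overlapped another listed TE and share sequence with it, as did 223 of the TEs that stayed low (13.3%) and 24.9% of all TEs, so the members were near the background here.

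The rise around CG-gaining TEs was steepest close by. Neighbours within 250 bp went from 63.3 to 84.8% CG around 487 members and from 48.4 to 49.1% around 391 TEs that stayed low. At 250 to 500 bp the change was 13.1 points around members, and at 500 to 1000 bp it was 5.78 points. Between 10 and 20 kb it was still 4.44 points, against 1.15 points for TEs that stayed low and 2.62 points for all TEs. Taking only neighbours with leaf CG of at least 30%, the change within 250 bp was 13.5 points around members and -2.10 points around TEs that stayed low.

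**Figure D5:**
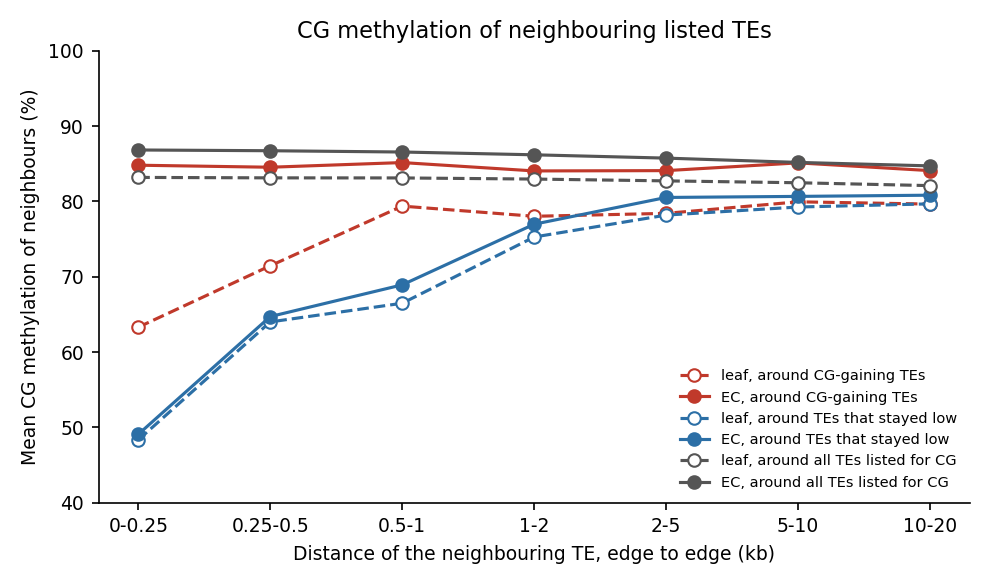
Mean CG methylation (y axis, percent, starting at 40) of listed TEs by their edge-to-edge distance from a TE (x axis, kb), in leaf (dashed, open) and EC (solid, filled), averaged first per TE, around CG-gaining TEs, TEs that stayed low and all TEs with a CG value. Around CG-gaining TEs the leaf line dips to 63.3% within 0.25 kb and the EC line does not, while around TEs that stayed low both lines dip to under 50%.

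In CHG the neighbourhoods differed as well. CHG of neighbours went from 53.4 to 67.3% around members, from 44.9 to 47.4% around TEs that stayed low and from 59.7 to 64.9% around all TEs. The mean change around genic members was 3.13 points, against -1.33 points around genic TEs that stayed low and -9.03 points around all genic TEs. Around intergenic members it was 15.2 points, against 3.70 and 9.39 points. CHH of neighbours in EC was 34.0, 27.8 and 31.3% in the 3 groups. The neighbourhoods of CG-gaining TEs were therefore more methylated in EC than those of TEs that stayed low in each context.

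CG-gaining TEs were found on all 19 chromosomes. The share of leaf-low TEs that gained ran from 26.1% on chromosome 18 to 51.9% on chromosome 14, with a median of 38.8%. Intergenic members lay further from genic TEs than the intergenic TEs that stayed low, with a median distance of 17.2 kb against 11.3 kb, and 17.5% against 26.2% had a genic TE within 5 kb. All intergenic TEs had a median of 17.95 kb, so it was the TEs that stayed low that stood closer to genic TEs. Distance was measured to the nearest listed genic TE, since genes themselves are not in the tables.

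Most members stood alone rather than in large blocks. Merged within 5 kb they formed 1007 loci, of which 923 held 1 TE, 58 held 2, 20 held 3 and 6 held 4. Loci of 2 or more held 17.8% of members and 20.6% of the TEs that stayed low. The groups differ in size, at 1123 and 1682 TEs, so these shares do not compare how closely each was gathered. A CG-gaining neighbour within 5 kb was more frequent around members (17.3%) than around all TEs (3.82%), as given above. Of 463 windows of 1 Mb with a CG value, 389 held a member and 67 held 5 or more. The fullest, at 13 to 14 Mb of chromosome 14, held 14 members among 15 leaf-low TEs and 338 TEs with a CG value. Of these members, 4 were the adjoining TEs of 1 array (13324188 to 13324969).

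Of the loci with 4 members, 2 lay on chromosome 13. At 12569288 to 12572734 the members were 690, 230, 181 and 223 bp long, and their CG went from 24.9, 17.2, 10.4 and 26.3% in leaf to 80.1, 93.4, 75.5 and 82.4% in EC. At 16502434 to 16506472 CG went from 15.6, 27.2, 2.18 and 11.1% to 89.4, 84.8, 64.4 and 86.0%, and CHG from 6.24, 1.60, 0 and 18.3% to 83.0, 45.8, 45.0 and 84.2%. At both loci every member moved from under 30 to over 60% CG. The next, on chromosome 14 (8221276 to 8222028), was formed by the first 4 TEs of an array, with CG going from 14.8, 11.7, 8.96 and 7.5% to 60.7, 86.0, 88.5 and 88.9%.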

How the data were processed

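The deposited tables hold a methylation fraction from 0 to 1 for each TE, tissue and context, expressed here in percent. Per the study's methods, the authors annotated repeats with RepeatMasker on the PN40024 12X assembly, mapped reads with BS-Seeker2, called and averaged methylation per TE with cgmaptools, listed a TE only where effective coverage exceeded 20 in leaf and in EC alike, and called a TE genic where it overlapped a gene. The reference is not Chardonnay, so a C-to-T difference reads as lost methylation in both libraries. Read numbers are not given, so the depth per TE is unknown and no interval uses it.

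6 tables of 3 contexts and 2 classes were joined by position with pandas 2.3.3 and numpy 2.4.6. The tables of averages along features were not used. File starts were read as counted from 0 (5873 abutting pairs share a start and an end, 1454 differ by 1), and 1 was added to printed starts. Neighbours were averaged per TE before groups were averaged. Wilson 95% intervals treat TEs as independent. 1 library per tissue allows no test. The procedures were tested on simulated data. Members and lists were chosen with earlier results of these data known. The TEs named were the 5 with the largest CG gain per class (at least 500 bp, 3 contexts), the 3 longest per class, 3 loci with most members (6 tied at 4, so the first by position) and the 2 nearest each side of each limit, of which some are shown. The alternatives tried were other limits, lengths, distances, medians, subsets of TEs and weighting. Names, superfamilies and sequences of TEs are not analysed here.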

Additional observations from a re-analysis of the deposited data

How the results depend on the processing

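No paired analysis was possible because each tissue has 1 library. Of 64 alternative values for 7 results, 38 lay within the spread, 24 moved and 2 changed sign, and the cause was not tested except where the setting itself sets the number of TEs. For the counts of members and loci the spread was a set ratio of 1.5 either way, not a statistical interval. A count of 767 members with leaf CG under 20% thus lay within it. For the other results the spread was an interval over TEs. The count of 1123 fell to 515 with leaf CG under 10% and to 284 in TEs of at least 500 bp. The share of 38.4% was 34.1% with leaf CG under 20%, 29.8% under 10%, 31.7% and 42.5% with gains of at least 30 and 15 points, 41.2% from 500 bp and 36.3% with only the longest of overlapping TEs. The CHG change of CG-gaining TEs minus that of TEs that stayed low, 30.9 points, was 25.1 with leaf CG under 10%, 35.7 with gains of at least 30, 33.3 from 500 bp, 34.1 by medians, 14.7 in genic and 32.9 in intergenic TEs. For CHH, 16.1 points became 14.8, 17.3, 19.8, 20.7 and, in genic TEs, 13.2. The median length of 272 bp was 672 bp from 500 bp and 326.5 bp with all 3 contexts. The leaf CG of neighbours, 3.21 points higher, was 8.73 from 500 bp, 11.6 within 1 kb and 0.519 within 20 kb, and changed sign by medians (-0.698) and in genic TEs (-0.142). The arrays and the class subsets were chosen after seeing the data. Depth per TE is unknown, so TEs with few reads cannot be told from others.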
